A study of Mus musculus with 6 samples.

Results

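The antioxidant and NRF2 response genes described here are 10 genes chosen by name: the transcription factor gene Nfe2l2, and Nqo1, Gclc, Gclm, Txnrd1, Srxn1, Slc7a11, Gpx4, Sod2 and Prdx1, which encode enzymes and a transporter that keep peroxides, superoxide and oxidized thiols low. They were found by symbol among the 36047 mouse genes to which deposited transcripts could be joined, and all 10 were among the 20094 genes with enough counts to be tested. The rule that names them uses no measured value, though the choice was made with earlier results of these data known. RNA was sequenced from the infarct area of hearts of C57BL6 mice aged 12 weeks, female by the study's methods, 48 h after ischemia/reperfusion (I/R), in which a coronary artery is tied off and then released. One group of 3 mice was given LGK974, an inhibitor of Porcupine, the enzyme that lipidates Wnt proteins so that they can be secreted. The other group of 3 mice was given the DMSO vehicle by the same oral route. All 6 mice carried the injury and no uninjured heart was sequenced, so the comparison is of inhibitor with vehicle in injured tissue.

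NRF2, the protein made from Nfe2l2, is held at a low level by KEAP1, which binds it in the cytoplasm and hands it to a ubiquitin ligase. Electrophiles and peroxides modify KEAP1, NRF2 then escapes breakdown, enters the nucleus with a small MAF protein and binds antioxidant response elements in its target genes, so much of its regulation lies in the protein and not in its mRNA. Reperfusion of an ischemic heart brings a burst of oxidants from mitochondria, and infiltrating phagocytes add superoxide from their NADPH oxidase. The question asked of the data was whether the RNA of these genes differed in infarct tissue when Wnt secretion was blocked.

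The antioxidant response element has the core TGACNNNGC, where N is any base. This core was searched on both strands in RefSeq promoter windows of GRCm38.p6, each running from 250 bases before to 50 bases after a start site. Of 32851 windows, 12.4% held the core, and 14 windows belonged to 9 of the 10 genes. It was found in 1 window each of 5 genes, given here with the match in capitals because they carry the sequence that NRF2 and its MAF partner recognize. Each is written on the strand of the gene, 5′ to 3′.
Prdx1, chr4:116685436-116685504, plus strand: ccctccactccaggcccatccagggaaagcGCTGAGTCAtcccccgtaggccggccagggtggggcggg
Txnrd1, chr10:82859084-82859152, plus strand: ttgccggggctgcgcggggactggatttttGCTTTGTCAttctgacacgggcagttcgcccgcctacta
Nfe2l2, chr2:75704865-75704913, minus strand: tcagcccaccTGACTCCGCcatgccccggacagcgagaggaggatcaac
Gclm, chr3:122245393-122245461, plus strand: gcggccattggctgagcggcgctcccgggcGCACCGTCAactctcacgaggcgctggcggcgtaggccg
Srxn1, chr2:152105542-152105570, plus strand: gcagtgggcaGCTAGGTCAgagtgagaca
The match of Prdx1 lay 133 to 125 bases before the start and that of Txnrd1 92 to 84 bases before it. That of Nfe2l2 lay 240 to 232 bases before the start and that of Gclm 134 to 126 bases before it, whereas the match of Srxn1 lay within the transcribed sequence. In 4 of the 5 the core was in the reverse direction. Only the Prdx1 window held the longer form TGACTCAGC, which overlaps the core search and was in 0.454% of all windows. The 5 genes without a match include Gclc, for which no window was given, and a missing match says only that these letters were not in the window searched.

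The libraries held 41579787 to 80398211 estimated counts, and 28.2 to 53.7% of their counts were from mitochondrial genes. Values are given as CPM, gene counts divided by the scaled library total (TMM, a method that sets libraries to a common scale from the bulk of their genes). DMSO replicate 1 stood apart from the rest. Its log2 CPM correlated with the other libraries at 0.841 to 0.925, and the other libraries with each other at 0.923 to 0.966, a description across genes, which are not independent. Olfactory, vomeronasal and taste receptor genes, which heart should not transcribe, had a median of 29.8 counts per kb in DMSO replicate 1, whereas elsewhere that median was 0.915 to 10.2. The source of these counts was not tested. The 10 genes stood above that level in DMSO replicate 1, from 3.54 times for Srxn1 to 119 times for Gpx4. DMSO replicate 1 was also the lowest library for 5 of the 10 genes, so results are given with and without it.

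In the quasi-likelihood test of edgeR, adjusted by Benjamini-Hochberg over all genes, 0 of the 10 genes passed the threshold of 0.05, and 0% of all tested genes did. At an unadjusted p under 0.05 the count was 1 of 10, Txnrd1, against 13.4% of all genes. Nfe2l2, Txnrd1 and Prdx1 were the 3 genes whose LGK974 libraries all lay above the DMSO libraries, and no member lay wholly below. Over all tested genes the groups did not overlap in 18.0%, and LGK974 lay above DMSO in 10.7%. Without DMSO replicate 1 the same 3 genes had groups that did not overlap, against 28.8% of genes tested then. DESeq2, the tool the authors used, called 1 of the 10 at an adjusted p under 0.05, again Txnrd1, against 1.23% of the genes to which it gave an adjusted p. With 3 mice a group, an exact two-sided permutation test of one gene cannot give a p below 0.1.

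**Figure D1:**
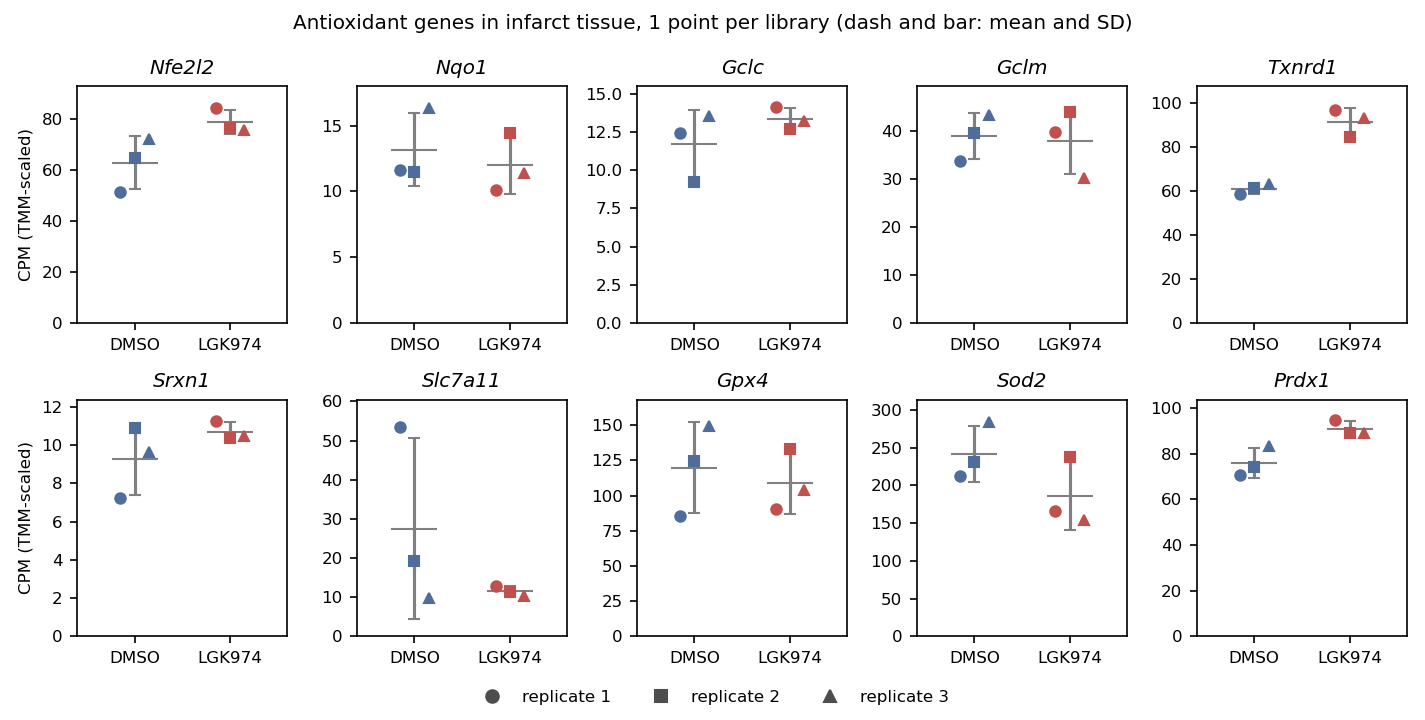
TMM-scaled CPM (y axis, from 0, its own scale for each gene) of the 10 genes in the 3 DMSO (blue) and 3 LGK974 (red) libraries, with circle, square and triangle for replicates 1, 2 and 3, a dash for the mean and a bar for the SD. The groups are apart for Txnrd1, with 84.7 CPM or more under LGK974 and 63.3 or less under DMSO, and DMSO replicate 1 stands alone at 53.6 CPM for Slc7a11.

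Nfe2l2 (ENSMUSG00000015839, GRCm38 chromosome 2, 75675513 to 75704641, minus strand) encodes NRF2 itself. It was at 84.3, 76.2 and 75.6 CPM in LGK974 replicates 1, 2 and 3 and at 51.4, 64.7 and 71.9 in DMSO replicates 1, 2 and 3. The groups did not overlap, but DMSO replicate 3 came within a few CPM of the lowest LGK974 libraries. The means were 78.7 ± 4.87 CPM (SD, n = 3) and 62.7 ± 10.4 (SD, n = 3), a log2 fold change of 0.33 (standard error 0.174, edgeR adjusted p = 0.395). The difference therefore did not pass the threshold over all genes, with an unadjusted edgeR p of 0.0969. Without DMSO replicate 1 the log2 fold change was 0.22 (standard error 0.156).

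Txnrd1 (chromosome 10, 82833951 to 82897712, plus strand) encodes cytosolic thioredoxin reductase, a selenoprotein that passes electrons from NADPH to thioredoxin. It was at 96.8, 84.7 and 93.3 CPM in LGK974 replicates 1 to 3 and at 58.5, 61.3 and 63.3 in DMSO replicates 1 to 3. Every LGK974 library was well above every DMSO library, and the 3 DMSO libraries lay close together, DMSO replicate 1 included. With means of 91.6 ± 6.25 and 61.0 ± 2.43 CPM (SD, n = 3 each), the log2 fold change was 0.59 (standard error 0.146, unadjusted p = 0.00412 and adjusted p = 0.368 by edgeR). DESeq2 gave 0.62 (standard error 0.177, adjusted p = 0.0433), so the call rests on the tool. Without DMSO replicate 1 the log2 fold change by edgeR was 0.57, so that library did not set its size.

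Prdx1 (chromosome 4, 116685544 to 116700822, plus strand) encodes a cytosolic peroxiredoxin, which reduces peroxides with electrons from thioredoxin. Its values were 94.8, 89.3 and 89.1 CPM in LGK974 replicates 1 to 3 and 70.9, 74.0 and 83.2 in DMSO replicates 1 to 3. The groups were apart, with a gap smaller than the range of the DMSO libraries. The means of 91.1 ± 3.27 and 76.0 ± 6.43 CPM (SD, n = 3 each) gave a log2 fold change of 0.26 (standard error 0.149, edgeR adjusted p = 0.419).

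Srxn1 (chromosome 2, 152105516 to 152111376, plus strand) encodes sulfiredoxin, which repairs overoxidized peroxiredoxins. It was at 11.3, 10.4 and 10.5 CPM under LGK974 and at 7.24, 10.9 and 9.63 in DMSO replicates 1 to 3. Only DMSO replicate 1 stood clearly low, and the groups overlapped (log2 fold change 0.21, standard error 0.200, edgeR adjusted p = 0.601). Without that library the log2 fold change was 0.08 (standard error 0.163).

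The genes of glutathione synthesis did not differ beyond their spread. Gclc (chromosome 9, 77754535 to 77794485, plus strand) encodes the catalytic subunit of glutamate-cysteine ligase, the first and rate-limiting enzyme of glutathione synthesis, and Gclm (chromosome 3, 122245557 to 122270732, plus strand) its modifier subunit. Gclc was at 14.1, 12.7 and 13.2 CPM in LGK974 replicates 1 to 3 and at 12.4, 9.25 and 13.5 in DMSO replicates 1 to 3, so that 1 DMSO library was low and the others were close to the LGK974 values (log2 fold change 0.19, standard error 0.187, edgeR adjusted p = 0.618). Gclm was at 39.7, 44.0 and 30.3 CPM in LGK974 replicates 1 to 3 and at 33.8, 39.7 and 43.3 in DMSO replicates 1 to 3, where each group covered most of the range of the other (log2 fold change −0.03, standard error 0.187, adjusted p = 0.939). Parts of the Gclm exons overlap Gm6061 on the same strand and Gm17494 on the opposite strand, so its reads may be shared with them.

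Slc7a11 (chromosome 3, 49892526 to 50443614, minus strand) encodes xCT, the exchanger subunit that imports the cystine from which glutathione is made. It was at 53.6, 19.2 and 9.70 CPM in DMSO replicates 1 to 3 and at 12.9, 11.4 and 10.4 in LGK974 replicates 1 to 3. The LGK974 libraries were alike, and the DMSO libraries ranged from below the lowest LGK974 library to several times the highest. The means of 11.6 ± 1.25 and 27.5 ± 23.1 CPM (SD, n = 3 each) gave the largest log2 fold change of the 10 genes in size, −1.24 (standard error 0.540, edgeR adjusted p = 0.368). Without DMSO replicate 1 it was −0.29 (standard error 0.264, adjusted p = 0.717), so 1 library held most of the difference. In that library Slc7a11 was 18.8 times the median of the receptor genes that heart should not transcribe, and removing that level from the counts of every library left a log2 fold change of −1.49 (adjusted p = 0.361). Slc3a2, the heavy chain that pairs with xCT, was at 45.9 ± 0.807 CPM under LGK974 and 35.7 ± 5.95 under DMSO (SD, n = 3 each), with LGK974 above in all 3 libraries (log2 fold change 0.36, edgeR adjusted p = 0.369).

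Gpx4, Sod2 and Nqo1 had lower means under LGK974 and overlapping groups. Gpx4 (chromosome 10, 80047166 to 80056439, plus strand) encodes the selenoenzyme that reduces lipid peroxides in membranes and holds back ferroptosis. It was at 90.1, 133 and 104 CPM in LGK974 replicates 1 to 3 and at 85.3, 125 and 149.8 in DMSO replicates 1 to 3. Both groups spread widely and replicate 1 was the lowest of each (log2 fold change −0.14, standard error 0.252, edgeR adjusted p = 0.798).

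Sod2 (chromosome 17, 13006846 to 13040063, plus strand) encodes the manganese superoxide dismutase of the mitochondrial matrix. It was at 166, 237 and 154 CPM in LGK974 replicates 1 to 3 and at 212, 231 and 283 in DMSO replicates 1 to 3. LGK974 replicates 1 and 3 lay below every DMSO library and LGK974 replicate 2 lay among them. With means of 186 ± 45.0 and 242 ± 37.0 CPM (SD, n = 3 each), the log2 fold change was −0.38 (standard error 0.230, edgeR adjusted p = 0.434).

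Nqo1 (chromosome 8, 107388225 to 107403206, minus strand) encodes the quinone reductase often used as a readout of NRF2 activity. It was at 10.1, 14.4 and 11.4 CPM in LGK974 replicates 1 to 3 and at 11.7, 11.5 and 16.4 in DMSO replicates 1 to 3. The groups overlapped (log2 fold change −0.14, standard error 0.217, edgeR adjusted p = 0.762).

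**Figure D2:**
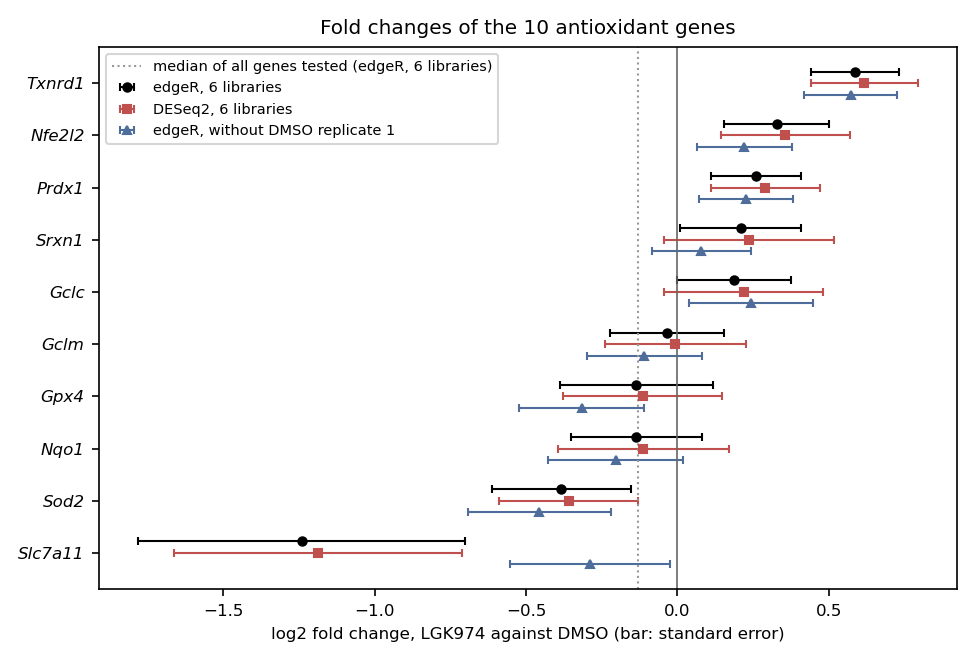
log2 fold change of LGK974 against DMSO (x axis) for the 10 genes, by edgeR on 6 libraries (black), DESeq2 on 6 libraries (red) and edgeR without DMSO replicate 1 (blue), each with its standard error as a bar. Txnrd1 has the highest value in all 3 fits, and Slc7a11 moves from −1.24 to −0.29 when DMSO replicate 1 is left out. The dotted line is the median of all genes tested, −0.13.

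Without DMSO replicate 1, the log2 fold changes not yet given were 0.23 for Prdx1, 0.24 for Gclc, −0.11 for Gclm, −0.32 for Gpx4, −0.46 for Sod2 and −0.20 for Nqo1, each with an edgeR adjusted p of 0.512 to 0.862.

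These values depend on the common scale. The median log2 fold change of all tested genes was −0.13 with TMM and 0.08 when libraries were scaled to their total counts alone, a shift of 0.21. Relative to the median of all genes, Txnrd1 stood at 0.72 and 0.73 with these scales, Nfe2l2 at 0.46 and 0.44, Prdx1 at 0.39 and 0.39, Sod2 at −0.25 and −0.32 and Slc7a11 at −1.11 and −1.04. The log2 fold changes of Nqo1, Gclm and Gpx4 themselves were near 0, and their sign turned with the scale. Relative to the median of all genes the sign was kept, at −0.0058 and −0.041 for Nqo1, 0.096 and 0.040 for Gclm and −0.0053 and −0.057 for Gpx4. With library totals alone, the groups were apart for Txnrd1 only, and Nfe2l2 and Prdx1 overlapped.

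Levels can be compared between genes only per length, and the deposited TPM values, which correct for transcript length within each library, were used for this. Sod2 had the highest median over the 6 libraries, 174 TPM, followed by Gpx4 at 139. These sums count all transcripts of a gene. Coding ones held 8.28 to 13.3% of the TPM of Sod2 and 2.46 to 6.78% of that of Slc7a11. The coding Sod2-201 was at 9.46 to 19.4 TPM and the coding Gpx4-202 at 72.0 to 214, so the first place of Sod2 rests on non-coding transcripts. Sod2 was above Gpx4 in 5 of 6 libraries, and Gpx4 was above Prdx1 in 6 of 6. Prdx1 (46.6 TPM), Txnrd1 (30.6), Gclm (30.2) and Nfe2l2 (28.5) formed the middle, where Txnrd1 and Gclm, and Gclm and Nfe2l2, kept their order in 4 of 6 libraries and so are not told apart. Nqo1 (7.58), Srxn1 (5.51), Gclc (4.47) and Slc7a11 (4.44) were lowest, and their neighbours below Nqo1 also kept their order in 4 of 6. Gclc, the catalytic subunit, was at 0.110 to 0.268 of the TPM of its modifier Gclm in the 6 libraries. That ratio rests on short Gclm transcripts, since Gclm-203 held 37.3 to 51.9% and Gclm-206 21.2 to 39.2% of the TPM of Gclm. The longest one, Gclm-201, was at 1.98 to 3.47 TPM and Gclc-201 at 2.22 to 6.24. The ratio therefore depends on which transcripts are counted.

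Ratios of deposited TPM within a library do not depend on how libraries are scaled to each other. Of 7 such ratios, 4 had groups that did not overlap. None was tested, and no share over other pairs of genes was computed to set beside this count. Txnrd1 was at 17.0 ± 3.34 times its mitochondrial counterpart Txnrd2 under LGK974 and 10.5 ± 2.03 times under DMSO (SD, n = 3 each), with no overlap. The ratio of Sod2 to Sod3, the extracellular superoxide dismutase, was 6.15 ± 1.63 under LGK974 and 14.5 ± 0.631 under DMSO, again with no overlap. Gpx4 was at 1.95 ± 0.550 times Gpx1, the cytosolic glutathione peroxidase, under LGK974 and 3.13 ± 0.361 times under DMSO. For these last pairs the partner gene had the higher mean CPM under LGK974, so the lower ratios do not rest on Sod2 and Gpx4 alone. The overlapping ratios were Gclc to Gclm, given above, Sod2 to Sod1, at 1.04 ± 0.0465 and 1.12 ± 0.0730, and Slc7a11 to Slc3a2, at 0.127 ± 0.0214 and 0.454 ± 0.411 (SD, n = 3 each). Sod2 and Slc7a11 enter these ratios with all their transcripts, most of whose TPM was non-coding. Nfe2l2 was at 3.13 ± 0.361 times Keap1 under LGK974 and 2.35 ± 0.433 times under DMSO, without overlap, while Keap1 itself was at 32.1 ± 1.06 and 32.5 ± 4.67 CPM (SD, n = 3 each).

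The transcripts that made up these genes differed in kind. Txnrd1-208, a coding transcript that starts at position 82859207, next to the RefSeq start of the window with the motif shown above, held 54.5 to 63.2% of the TPM of Txnrd1 in the 6 libraries. Nfe2l2-201 held 93.4 to 96.7% of Nfe2l2, and Gpx4-202 held 93.9 to 97.5% of Gpx4. Slc7a11 and Sod2 had most of their TPM in non-coding transcripts. Slc7a11-202, annotated as a retained intron, held 80.5 to 91.1% of the TPM of Slc7a11, and its coding transcripts held 2.46 to 6.78%. Sod2-207, annotated as a processed transcript, and Sod2-204, a retained intron, held 46.3 to 58.1% and 25.5 to 41.7% of Sod2, and its coding transcripts held 8.28 to 13.3%. In estimated counts, where long transcripts weigh more, the coding Sod2-201 held a mean of 40.6%. Coding transcripts held 82.6 to 95.9% of Gclm, 82.5 to 94.0% of Prdx1 and 90.8 to 93.5% of Txnrd1. The gene sums of Slc7a11 and Sod2 are thus mostly sums over reads assigned to transcripts that encode no full protein. Kallisto divides reads that match several transcripts, so these shares are estimates. The sources name both depletion of ribosomal RNA and a capture kit, and what each did to the share of retained introns was not tested.

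**Figure D3:**
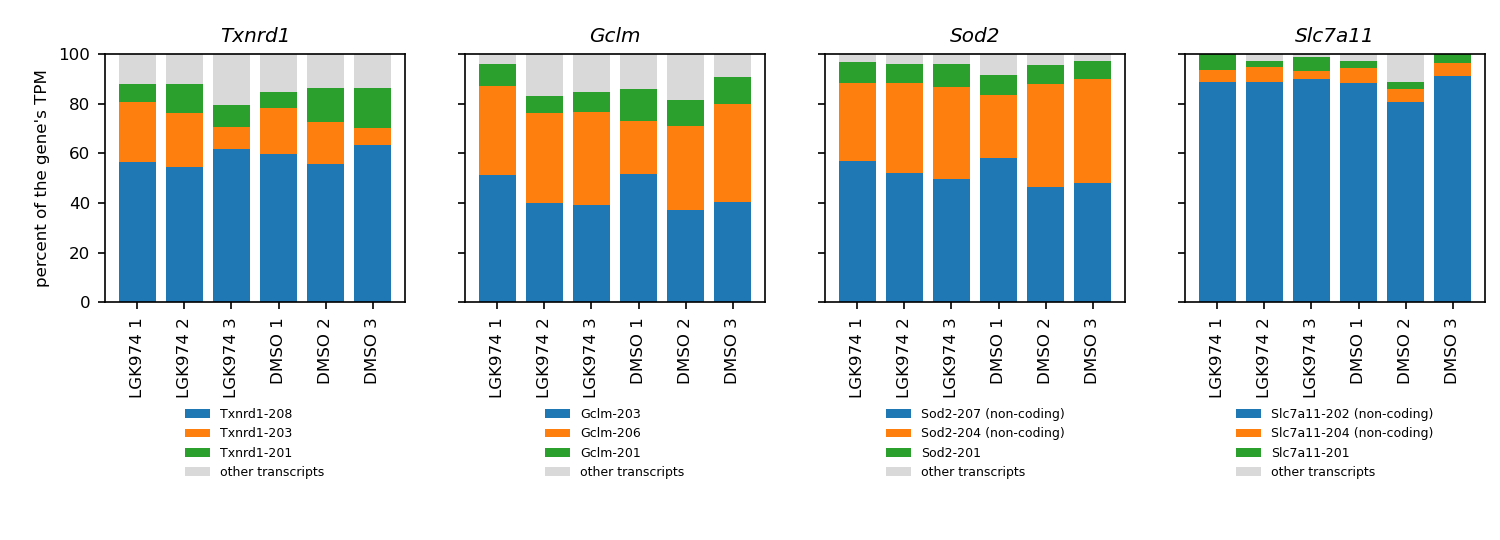
Share of the gene's TPM (y axis, percent) held by its leading transcripts in each of the 6 libraries, for Txnrd1, Gclm, Sod2 and Slc7a11, stacked to 100 with the remaining transcripts in grey. Coding transcripts lead in Txnrd1 and Gclm, while the transcripts marked non-coding hold most of Sod2 and of Slc7a11 in every library.

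The other genes of the pathway were read from 8 lists with 139 genes in all, of which 137 were tested. By edgeR 0 of them passed the adjusted threshold. DESeq2 called 4, all higher under LGK974: Hmox1, Ftl1, Sod3 and Cybb. It called 1.23% of all genes to which it gave an adjusted p. At an unadjusted p under 0.05 there were 24 higher and 8 lower, or 23.4% against 13.4% of all genes, and the groups did not overlap in 29.9% against 18.0%. The median log2 fold change of the 137 genes was 0.02, and −0.13 over all genes. Without DMSO replicate 1 the unadjusted counts were 23 higher and 13 lower of 136 tested, against 11.0% of all genes tested then. The medians without that library were −0.016 for the listed genes and −0.021 over all genes, so they no longer stood apart. Markers of leukocytes also had higher values under LGK974, and the part of cell mixture in these counts was not tested.

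Among 18 regulators of NRF2, 0 had a higher and 1 a lower value at an unadjusted p under 0.05, with a median of −0.01. The 1 gene was Bach2, a repressor best known from lymphocytes. It was at 5.49 ± 0.333 CPM under LGK974 and 8.37 ± 0.551 under DMSO (SD, n = 3 each, log2 fold change −0.61, edgeR adjusted p = 0.368). Its exons overlap those of its antisense gene Bach2os. Mafk, a small MAF partner of NRF2, had a log2 fold change of 0.30, the related factor Nfe2l1 −0.16, and Nfe2, under 1 CPM in every library but DMSO replicate 1, −1.29. None of these 3 passed the test (edgeR adjusted p = 0.410, 0.682 and 0.421).

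Among 30 other NRF2 target genes, 8 had higher and 2 lower values at an unadjusted p under 0.05, with a median of 0.07. The 2 lower ones, named after their values were seen, were Gsta3, a glutathione transferase (log2 fold change −1.36), and Aox1, an aldehyde oxidase (−0.87). The higher ones included 3 of the pentose phosphate pathway, which supplies NADPH, named in the same way: Pgd (0.70), G6pdx (0.68) and Tkt (0.63). Without DMSO replicate 1 the list had 8 higher and 4 lower genes at that unadjusted threshold, with a median of −0.057. Hmox1, heme oxygenase 1, which degrades heme and is induced by NRF2 and by the loss of the repressor BACH1, was at 96.7, 91.1 and 123 CPM in LGK974 replicates 1 to 3 and at 46.9, 57.0 and 57.0 in DMSO replicates 1 to 3. Every LGK974 library was far above every DMSO library. The log2 fold change was 0.95 (standard error 0.183, unadjusted p = 9.08e-04 and adjusted p = 0.368 by edgeR, adjusted p = 0.00244 by DESeq2). Ftl1, the ferritin light chain that stores iron, was at 357 ± 25.8 and 188 ± 62.3 CPM (SD, n = 3 each, log2 fold change 0.92, adjusted p = 0.368 by edgeR and 0.044 by DESeq2). Its exons overlap other annotated genes on both strands. Ugdh, which makes UDP-glucuronate, was at 24.0 ± 2.42 and 16.7 ± 1.57 CPM (SD, n = 3 each, log2 fold change 0.53, edgeR adjusted p = 0.368).

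Among 23 glutathione genes, 2 had higher and 3 lower values at an unadjusted p under 0.05, with a median of −0.03. Gpx1 had a log2 fold change of 0.64 and Gpx7, a peroxidase of the endoplasmic reticulum, of 0.69, while Gstk1, a mitochondrial and peroxisomal glutathione transferase, had −0.63. The other lower genes, named after their values were seen, were Cbs of cysteine synthesis (−1.07) and the mitochondrial glutaredoxin Glrx2 (−0.77). Cbs was at 14.2, 5.77 and 3.91 CPM in DMSO replicates 1 to 3 and at 3.29 to 4.11 under LGK974. Its groups overlapped, and DMSO replicate 1 held most of its difference. All 5 had an edgeR adjusted p of 0.368. Of 19 thioredoxin and peroxiredoxin genes, 1 was higher and 1 lower at that unadjusted threshold, and the median was −0.12. Prdx4, the peroxiredoxin of the endoplasmic reticulum, was at 10.5 ± 0.598 and 7.26 ± 0.239 CPM (SD, n = 3 each, log2 fold change 0.53, edgeR adjusted p = 0.368), with groups that did not overlap. The other peroxiredoxins had overlapping groups: −0.18 for Prdx2, −0.38 for the mitochondrial Prdx3, −0.22 for Prdx5 and 0.05 for Prdx6. Sesn1, a sestrin, had −0.73 and Txndc12 0.40, and the remaining thioredoxin reductases had 0.02 for Txnrd2 and −0.12 for Txnrd3, both with overlapping groups. The differences between Txnrd1 and its relatives were not tested.

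Of 9 superoxide and peroxide enzymes tested, 2 were higher and 0 lower at an unadjusted p under 0.05, and the median was −0.22. Sod3 was at 89.8, 95.2 and 96.2 CPM in LGK974 replicates 1 to 3 and at 47.8, 51.7 and 64.1 in DMSO replicates 1 to 3. These groups were far apart (log2 fold change 0.78, standard error 0.167, adjusted p = 0.368 by edgeR and 0.0128 by DESeq2), whereas the cytosolic Sod1 had −0.34 (edgeR adjusted p = 0.423) and Cat, the catalase of peroxisomes, −0.54 (adjusted p = 0.383), both with overlapping groups. Of the 13 tested genes that make oxidants, 6 had a positive and 7 a negative value, with a median of −0.06. At an unadjusted p under 0.05 there were 5 higher and 0 lower, the 5 all subunits or partners of the phagocyte NADPH oxidase, which has a part in killing microbes and makes superoxide. Cybb, its catalytic subunit, was at 28.6 ± 4.76 and 14.7 ± 1.03 CPM (SD, n = 3 each, log2 fold change 0.96, adjusted p = 0.368 by edgeR and 0.00506 by DESeq2). Rac2 and Ncf1 both had 0.68 (edgeR adjusted p = 0.368 each), and the other 2, named after their values were seen, were Cyba (0.58) and Ncf4 (0.92). Ncf1 overlaps exons of Gtf2ird2.

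Of 22 ferroptosis genes, 6 were higher and 1 lower at an unadjusted p under 0.05, with a median of 0.13, and Hmox1 and Ftl1, already described, were among the 6. Sat1, which acetylates polyamines, had a log2 fold change of 0.57, and the 1 lower gene, named after its value was seen, was the lipoxygenase Alox12 (−0.79). The count without DMSO replicate 1 was 3 higher and 3 lower. Of 19 selenoprotein genes, 16 had a positive value, against 40.5% of all genes tested, 4 of them at an unadjusted p under 0.05, and the median was 0.16. Besides Gpx1, the 4 were Selenom (0.61), Selenos, a protein of the endoplasmic reticulum membrane (0.42), and Selenof (0.46), the last named after its value was seen (edgeR adjusted p = 0.368 each).

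**Figure D4:**
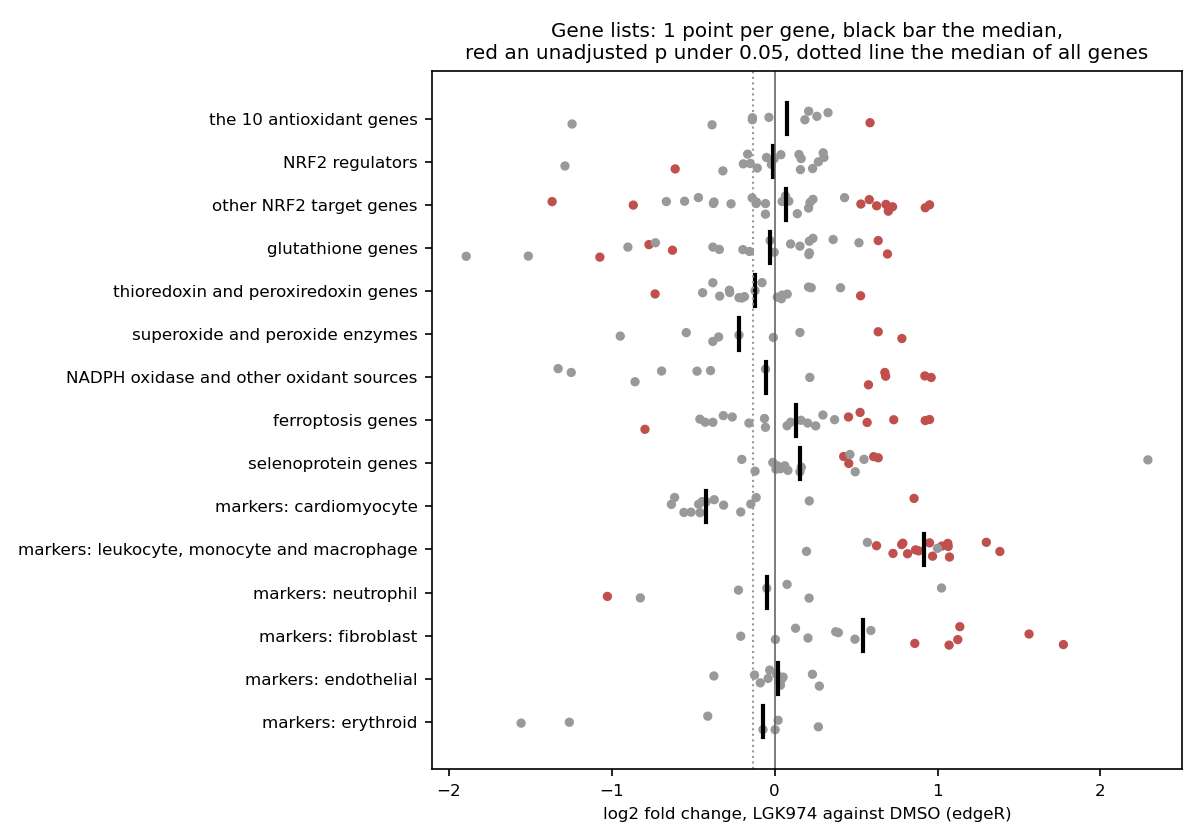
log2 fold change of LGK974 against DMSO by edgeR (x axis) for each tested gene of the lists, 1 point a gene, with the list's median as a black bar, genes at an unadjusted p under 0.05 in red and the median of all genes, −0.13, as a dotted line. The pathway lists are centred between −0.22 and 0.16, while the leukocyte, monocyte and macrophage markers are centred at 0.92.

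Markers of cell types moved with the groups. All 18 markers of leukocytes, monocytes and macrophages had a positive log2 fold change, with a median of 0.92, and 15 had an unadjusted p under 0.05. Their summed level was 752 to 919 CPM under LGK974 and 347 to 517 under DMSO, with none at 0 in any library. Lyz2, the lysozyme of myeloid cells, had a log2 fold change of 1.30 and Cd53, a tetraspanin of leukocytes, of 1.07 (edgeR adjusted p = 0.368 each). DESeq2 called 9 of the 18, all higher, against 1.23% of all genes to which it gave an adjusted p. Of 14 fibroblast markers 13 had a positive value, with a median of 0.54, and their sum was 4231 to 7857 CPM under LGK974 and 2042 to 2979 under DMSO, with Fn1 at 1.77 and Postn, the periostin of activated fibroblasts, at 1.56.

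The cardiomyocyte markers, which define the tissue, were abundant in every library, at 43916 to 62206 CPM under LGK974 and 50287 to 69368 under DMSO. Of these 15 markers, 13 had a negative log2 fold change, with a median of −0.42. At an unadjusted p under 0.05 there were 1 higher and 0 lower. The 1 was Actc1, cardiac actin, which had the opposite sign with a log2 fold change of 0.86, all LGK974 libraries above, and an adjusted p of 0.368 by edgeR and 0.0448 by DESeq2. Sod2 and Prdx3, proteins of mitochondria, are known to be abundant in heart muscle. The neutrophil markers summed to 68.8 to 96.4 CPM under LGK974 and 94.8 to 177 under DMSO, with DMSO replicate 1 the highest. Cxcr2 was at 50.3 CPM in that library and 12.0 to 17.2 elsewhere, and Lcn2 at 94.4 CPM there and 21.7 to 77.6 elsewhere. Of the 7 neutrophil markers tested, 4 had a negative and 3 a positive log2 fold change by edgeR, with a median of −0.05. The positive ones were S100a8, S100a9 and Mmp8, so the lower sum did not hold for each marker. The granule genes Camp, Elane, Ngp and Retnlg and the surface marker Ly6g had too few counts to be tested. Endothelial markers, at 830 to 862 and 705 to 1006 CPM, had a median log2 fold change of 0.02, and 7 tested erythroid markers −0.07. In whole tissue, fewer cells of a type and less RNA per cell cannot be told apart, and the part of cell mixture in the values of the 10 genes was not tested.

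**Figure D5:**
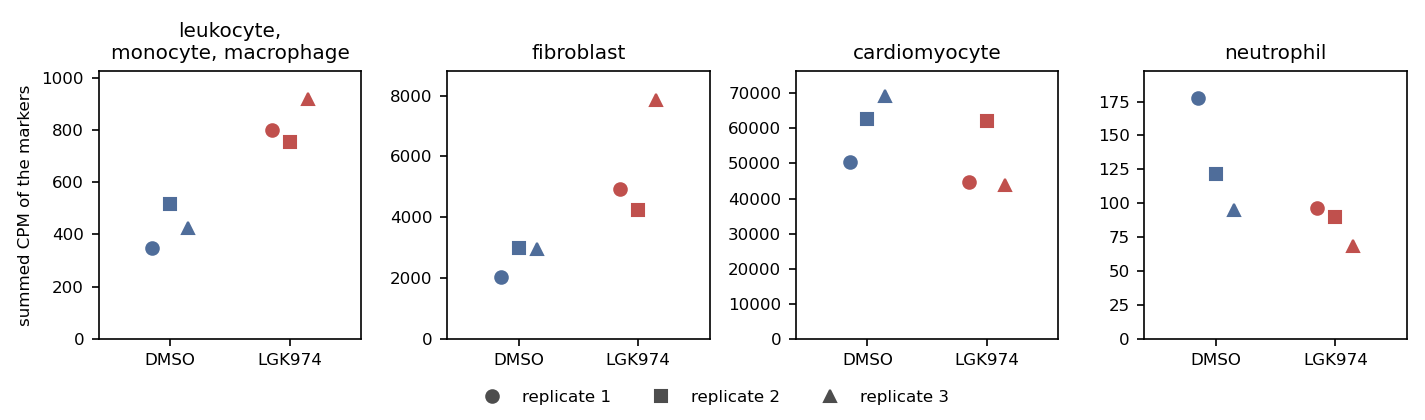
Summed TMM-scaled CPM of the tested markers of 4 cell types (y axis, from 0) in the 3 DMSO (blue) and 3 LGK974 (red) libraries, with circle, square and triangle for replicates 1, 2 and 3. The leukocyte and fibroblast sums of the groups do not overlap, with LGK974 higher, whereas the cardiomyocyte sums overlap.

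The 3 genes whose profile over the 6 libraries was most like that of Nfe2l2 were Pcnp, Eloa and Srsf6. Their log2 CPM, centred on its mean, differed from that of Nfe2l2 by a root mean square of 0.0193, 0.0273 and 0.0419. Of the other 9 genes, Prdx1 ranked 226, Srxn1 460 and Txnrd1 1858 among the genes tested by this measure, and Slc7a11 ranked 15499. With only 9 other members among 20094 tested genes, that the 3 nearest were not members says nothing about a shared profile. The ranks of the members ran from 226 to 15499, and whether they share a profile was not tested.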

How the data were processed

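RNA of the infarct area of 6 mice was sequenced. Per the labels, ribosomal RNA was depleted and a capture kit was used, and whether both steps applied to these libraries was not settled. For each library the authors deposited estimated counts and TPM values of 118489 transcripts, made with Kallisto on an index of GRCm38, whose version is not given in the sources used here. They tested genes with DESeq2. Here 98.6% of the transcripts were joined to genes of GENCODE M21 (GRCm38), and counts were summed per gene and rounded. Groups come from the sample labels, and the series' design names 3 animals a group.

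Genes that reached 10 counts in 3 or more libraries were tested with edgeR 4.0.16 (R 4.3.3, TMM, quasi-likelihood test, treatment alone) with Benjamini-Hochberg adjustment and a threshold of 0.05. DESeq2 1.42.0 with its defaults and limma 3.58.1 on log2(TPM + 1) were alternatives, besides other scales, filters, genes, a replicate block and leaving out each library. The precision is that of 3 libraries a group. Python 3.11.15 made the tables. Reads divided between near-identical or overlapping genes stay divided.

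The 10 genes and all lists were chosen with earlier results of these data known, so they are no independent evidence. Named are the 10 genes, up to 3 genes of each pathway list and 2 of each marker list with the smallest p-values, a set of fixed relatives, and the 3 genes most like Nfe2l2. Flow cytometry, echocardiography and protein sequences were not analysed here.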

Additional observations from a re-analysis of the deposited data

How the results depend on the processing

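Genes called over all genes numbered 0 with edgeR as described, 289 with DESeq2, 1206 with no filter on low counts, 44 with limma on log2(TPM + 1) and 0 to 2 with each library left out, the 2 without DMSO replicate 1. The replicate block gave 0, and 3312 genes at an unadjusted p under 0.05. Same-numbered libraries correlated at 0.475, −0.05 and 0.391 in their deviations. The values 0.475 and 0.391 lay above those of every differently numbered pair, whereas −0.05 lay among them. Whether the numbers pair the libraries was therefore not settled, and the block changed no call of the 10 genes. Members with groups that did not overlap numbered 3, but 1 with library size only and 1 with TPM, Txnrd1 in both. With each library left out they numbered 3 to 5, the 5 without DMSO replicate 3. Over all tested genes the share was 18.0% with all 6 libraries and 28.8% without DMSO replicate 1. The share was not computed for the other alternatives. With a library left out, groups overlap less easily for any gene, so the 5 cannot be read as a gain of the members. Txnrd1 had LGK974 above DMSO in every alternative, with log2 fold changes from 0.44 to 0.94 and adjusted p from 0.0433 to 0.772. It passed the threshold with DESeq2 alone (0.62, adjusted p = 0.0433). Slc7a11 passed it with no filter on low counts alone (−0.96, adjusted p = 0.0337) and ranged from −1.51 to −0.29. Nfe2l2 ranged from 0.20 to 0.63 and Prdx1 from 0.11 to 0.58.

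The sign turned for Nqo1 with library size only (0.038) and TPM (0.17), for Gclm with library size only (0.12), no filter (0.10) and TPM (0.43), and for Gpx4 with library size only (0.022) and TPM (0.21). With 1 library left out Nqo1 ranged from −0.24 to 0.16, Gclm from −0.11 to 0.17 and Gpx4 from −0.32 to 0.16. With library size only, the median of all genes turned sign as well, from −0.13 to 0.08. Relative to that median, Nqo1, Gclm and Gpx4 kept their sign. The cause of the turns was not tested.

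Of 210 values of list medians under the alternatives, 36 moved by more than the spread between libraries. With library size only they were 0.26 for the 10 genes, 0.18 for NRF2 regulators, 0.29 for NRF2 targets, 0.21 for glutathione, 0.25 for NADPH oxidase, 0.34 for ferroptosis and 0.29 for neutrophil genes. With TPM they were 0.23 for the 10 genes, 0.30 for regulators, 0.32 for targets, 0.27 for glutathione, 0.17 for thioredoxin, 0.16 for superoxide, 0.40 for selenoprotein, 0.32 for neutrophil, 0.75 for fibroblast and 0.30 for endothelial genes. With no filter they were 0.22 for the 10 genes, 0.12 for regulators, 0.12 for glutathione and −0.56 for neutrophil genes. DESeq2 gave −0.76 for neutrophil genes, counts less background 0.45 for NADPH oxidase genes and the replicate block −0.43 for erythroid genes. The neutrophil medians by DESeq2 and with no filter took in markers with too few counts for the main test. They are thus over another set of genes than the main median and do not show a move of the same genes. With 1 library left out they ranged from −0.015 to 0.25 for the 10 genes, −0.038 to 0.18 for regulators, −0.057 to 0.25 for targets, −0.054 to 0.20 for glutathione, −0.24 to 0.44 for NADPH oxidase (0.44 without DMSO replicate 1), 0.042 to 0.34 for selenoprotein, −0.33 to 0.33 for neutrophil and −0.11 to 0.26 for endothelial genes.

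As shares of estimated counts in place of TPM, Nfe2l2-201 held 97.5%, Gclc-201 94.8%, Gclm-203 31.1%, Txnrd1-208 63.8%, Srxn1-201 96.2%, Slc7a11-202 83.6%, Gpx4-202 97.8%, Sod2-207 43.6% and Prdx1-204 91.6%. The longer motif was in 1 gene. All 45 pairs of the 10 genes kept their order by level when counts per kb scaled to library size replaced TPM. Gene counts divided by the mean transcript length gave another order in DMSO replicate 1. There Gpx4 was at 3552 counts per kb and Sod2 at 2821, and Nfe2l2 was at 835 and Gclm at 466. The order of these pairs thus depends on how length is handled.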

Other observations

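The share of the coding transcript Gclm-201 in the TPM of Gclm was 7.91 ± 0.746% under LGK974 and 11.4 ± 1.18% under DMSO (SD, n = 3 each), and these values did not overlap. Of 50 transcripts of the 10 genes, 4 had shares that did not overlap between the groups: Gclm-201, Gpx4-203, Sod2-203 and Sod2-206. They were named after their values were seen and were not tested, and no such count over the transcripts of other genes was made. Gclm-201 is the longest Gclm transcript, and the gene's total did not differ beyond its spread.

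LGK974 replicate 1 was the highest library for 5 of the 10 genes, DMSO replicate 3 for 3, and LGK974 replicate 2 and DMSO replicate 1 for 1 each.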
